A study of Homo sapiens with 59 samples.

Results

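Messenger RNA was compared between neural stem cells whose exposure to CHIR99021 lasted 4 or 6 h and those in which it lasted 2 h, the shortest exposure of a time course. The members were the 3 libraries of 4 h and the 3 of 6 h, set against the 3 libraries of 2 h, so 9 of the 59 libraries of the series. The cells were derived from WA09 (also called H9), a widely used line of human embryonic stem cells. No other line and no arm without CHIR99021 was analysed here. Cells of every group received FGF8b at 200 ng per mL for 1 day and were then seeded in a neuromesodermal progenitor medium with the ROCK inhibitor Y27632. An automated platform ended the CHIR99021 step after 2, 4 or 6 h by changing to a retinoic acid medium, which was renewed daily for 4 days until lysis. A difference between these groups is therefore one of 2 or 4 h in the exposure, read 4 days later, and not a response measured at 2, 4 or 6 h. Each group had the replicates A1, A2 and B1. Whether these came from separate cultures is not in the labels. The p-values rest on the spread among libraries of the same time point over all 59 libraries, which may be technical.

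CHIR99021 inhibits the kinase GSK3, which keeps beta-catenin from being degraded and so switches on canonical WNT target genes. Canonical WNT and FGF signals hold cells in a posterior neuromesodermal state in which HOX genes of successive groups are opened. Retinoic acid binds nuclear RAR and RXR receptors, drives such cells to a neural fate of hindbrain and spinal cord type, and induces the enzymes that break it down.

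Levels were in TPM, a measure of each gene's share of a library's transcripts per unit of length. TPM carry no read counts, so depth is unknown and no counting interval can be given. The 4 h B1 library had 9695 genes at 1 TPM or more, and the other 8 had between 12668 and 13085. Only 3 of the 59 libraries were under 10000, and the lowest of the other libraries had 11004. Where its omission ended a call or moved a value, the value without 4 h B1 is given for part of the genes only. A value printed alone may thus lean on that library. Its genes listed at 0 include members described below, and fewer cells of a type and less RNA per cell cannot be told apart in these bulk libraries.

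**Figure D1:**
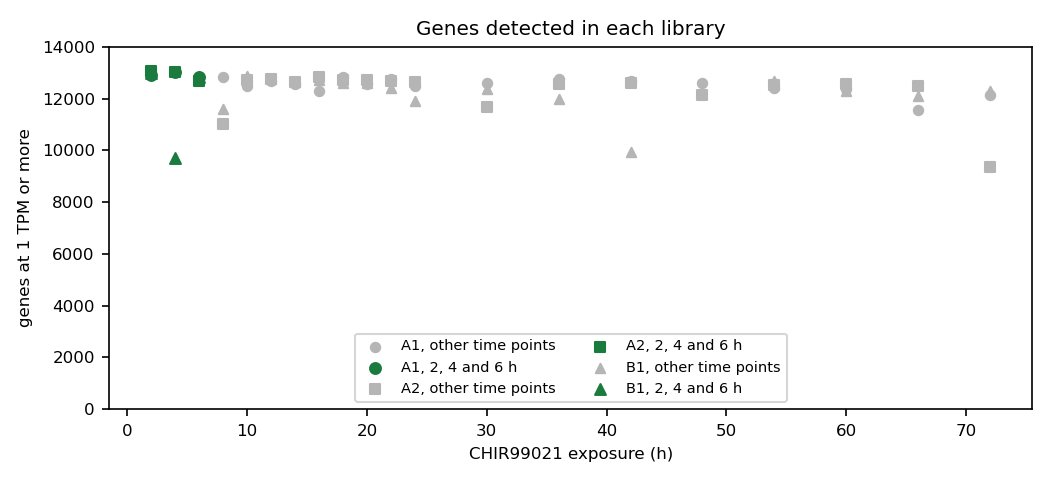
Genes at 1 TPM or more (vertical axis, from 0) in each of the 59 libraries against hours of CHIR99021 (horizontal axis), with a symbol for each replicate label and the 9 libraries of 2, 4 and 6 h in green. The 4 h B1 library, at 9695 genes, lies below the other green symbols, which lie between 12668 and 13085.

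The label of neural stem cell was checked against 7 markers of neural progenitors. CDH2, PAX6, NES and SOX3 were above 50 TPM in all 9 libraries, and PAX6 was at 227, 199.9 and 189 TPM at 2 h, 172, 166 and 195 at 4 h and 184, 169 and 179 at 6 h. SOX2 was at 74.7, 70.7 and 71.7 TPM at 2 h, 32.8, 47.5 and 0 at 4 h and 25.9, 29.7 and 34.3 at 6 h, so 8 libraries held it and 4 h B1 did not. SOX1, an early pan-neural factor, was low, at 1.59, 1.30 and 0.62 TPM at 2 h, and FABP7, a radial glial lipid carrier, was at 1.09, 4.50 and 13.7 TPM at 2 h. Both were listed at 0 in 4 h B1. Epithelial genes were also present: KRT8, a keratin of simple epithelia, was at 1219.9, 1208 and 1445 TPM at 2 h, and EPCAM, an epithelial adhesion protein, at 385, 433 and 418 TPM. The mesodermal factor T was listed at 0 in all 59 libraries.

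With 4 and 6 h of CHIR99021, genes that handle retinoic acid, CEBPA, WNT4, APOA1 and SRSF6 were higher than with 2 h, and epithelial genes, OTX2, ZIC genes, SOX11 and genes of the hypoxia response were lower. Of 15305 genes tested, 129 were higher, or 0.843%, and 404 were lower, or 2.64%, together 3.48% (limma on log2(TPM + 1), Benjamini-Hochberg adjusted p under 0.05). A log2 difference of 1 or more was found for 63 of the higher and 221 of the lower genes, and this scale understates the change of genes near 0. The libraries did not overlap with 2 h in 3.2% of genes in the higher and 9.26% in the lower direction. Without 4 h B1, 144 genes were higher, or 0.941%, and 305 lower, or 1.99%, and 364 of the 533 calls remained. Without 2 h A1, 2 h A2 or 2 h B1 the total was 251, 249 or 263. Of the 404 lower genes, 103 were listed at 0 in 4 h B1, as were 5402 of all 15305 genes tested. Among all genes tested the median log2 difference was -0.12, and -0.04 without 4 h B1. In the following, the call of a gene given with its difference held with each of the 9 libraries left out in turn unless the libraries that ended it are named, with the highest adjusted p of limma among those fits. Calls that ended under another setting, such as a fit of the 9 libraries alone or a pseudocount of 0.1 in place of 1, are named at the end of each paragraph. Counts of passing list members are not covered by this. The lists and their members were chosen with earlier results of these data known. Their counts set against all genes are therefore description and not a test.

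**Figure D2:**
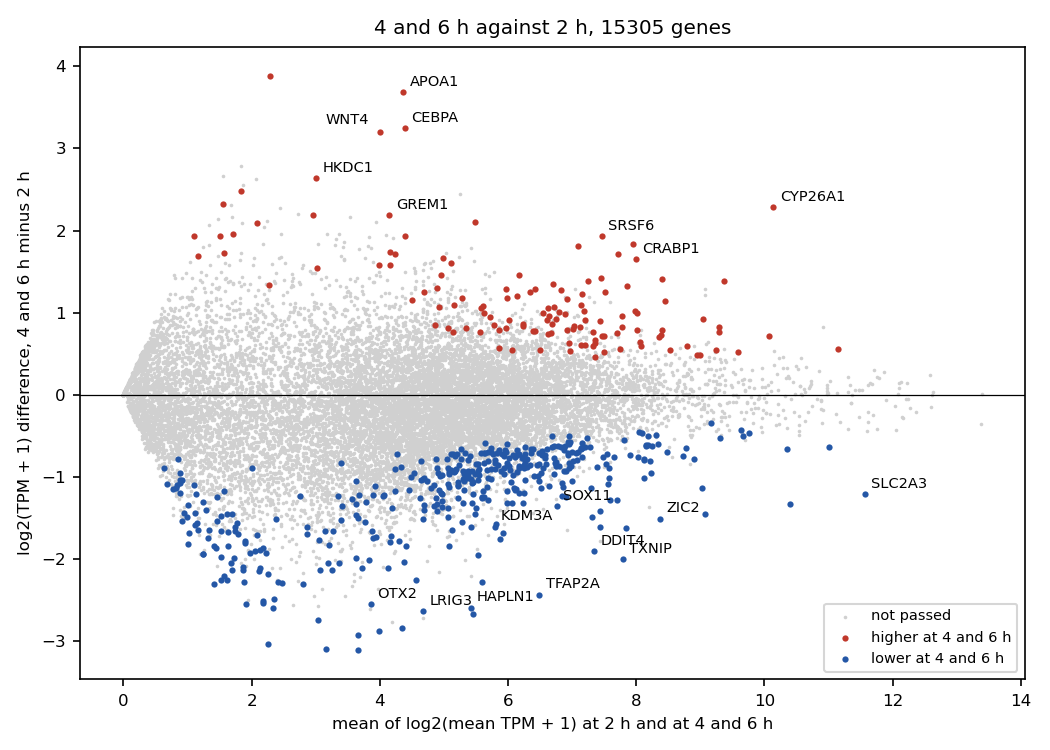
Difference in log2(TPM + 1) between 4 and 6 h and 2 h (vertical axis) against the mean level on the log2 scale (horizontal axis), 1 point for each of the 15305 genes tested. The 129 genes higher at 4 and 6 h are red and the 404 lower are blue. CYP26A1, at 2.29 on the vertical axis, is among the red points.

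Genes that carry and degrade retinoids were higher at 4 and 6 h. Of 12 tested genes of retinoic acid metabolism and transport, 5 rose and none fell, 11 of 12 differences were above 0, and the median difference was 0.55, against 0.843% of all genes higher and a median of -0.12. RBP4 was listed at 0 in every library and was not tested. Without 4 h B1, 4 of the 12 rose.

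CYP26A1, the cytochrome P450 that breaks down retinoic acid, was at 447, 539 and 519.5 TPM at 2 h, 3613, 3174 and 2621 at 4 h and 1819, 2248 and 1745 at 6 h, with libraries always in the order A1, A2, B1. All 6 libraries of 4 and 6 h lay above all 3 of 2 h, and the 3 of 4 h lay above the 3 of 6 h. The log2 difference was 2.29 ± 0.15 (SE; limma adjusted p = 5.5e-15). At 8 h the mean was 1455 ± 272 TPM, at 24 h 535 ± 56.7 TPM and at 72 h 165 ± 76.6 TPM (SD, n = 3 each), so of these means and those of 4 and 6 h that of 4 h was the highest.

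The promoters of CYP26A1 and of RARB, which encodes a retinoic acid receptor, are shown because both genes are textbook targets of the receptor and yet differed in direction here. In each, the 250 bases before the start of a window are printed 5′ to 3′ from RefSeq (build GRCh38.p14, plus strand). There were 2 promoter windows for CYP26A1 and 4 for RARB, and the window shown was picked because it held the repeat. TPM are given per gene and do not tell which start was used. Capitals mark a direct repeat of 2 half-sites of 6 bases spaced by 5 bases, the DR5 form of the retinoic acid response element.
CYP26A1, chr10:93073643-93073892: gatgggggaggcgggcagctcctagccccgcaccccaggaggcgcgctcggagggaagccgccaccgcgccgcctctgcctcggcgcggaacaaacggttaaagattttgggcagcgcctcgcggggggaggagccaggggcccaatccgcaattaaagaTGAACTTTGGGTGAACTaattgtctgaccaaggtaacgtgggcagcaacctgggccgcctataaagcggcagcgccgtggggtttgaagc
RARB, chr3:25428013-25428262: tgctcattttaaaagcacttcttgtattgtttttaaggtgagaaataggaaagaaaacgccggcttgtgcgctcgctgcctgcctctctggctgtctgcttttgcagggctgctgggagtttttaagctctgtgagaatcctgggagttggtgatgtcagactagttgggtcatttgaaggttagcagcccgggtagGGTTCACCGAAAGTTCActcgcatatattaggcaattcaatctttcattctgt
In CYP26A1 the repeat reads on the minus strand and ends 74 bases before the start, and in RARB it reads on the plus strand and ends 37 bases before it. Each half-site searched was AGGTCA, or else AGTTCA, or with a first G GGGTCA or else GGTTCA, on both strands, and no other motif was searched. Of 35116 promoter windows of 300 bases in the table, 31 held the repeat, or 0.0883%. Of the 15305 tested symbols, 11105 matched the table and 11 had such a window. Among those 11, CYP26A1 rose, RARB fell and 9 did not pass, against 0.843% of all genes higher and 2.64% lower. Their median difference was -0.12, the same as that of all genes tested. The call of RARB, described below, ended without any 1 of 6 of the 9 libraries. Reads were mapped to another build, hg19, so the promoter coordinates are not those of the expression table. A match of letters is not a binding site, and binding was not measured.

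Other retinoid handling genes were higher too. CRABP1, a cytosolic retinoic acid binding protein, was at 139, 187 and 101 TPM at 2 h, 301, 312 and 435 at 4 h and 527, 702 and 466 at 6 h. Its libraries did not overlap with those of 2 h at either time. CRABP1 differed by 1.66 ± 0.23 (limma adjusted p = 5.9e-06). DHRS3, which reduces retinal to retinol, was at 61.3, 81.6 and 69.8 TPM at 2 h, 309, 336 and 280.4 at 4 h and 219, 227 and 165 at 6 h. DHRS3 differed by 1.81 ± 0.47 (limma adjusted p = 0.018). DHRS3 lost its call without any 1 of the 2 h libraries (adjusted p up to 0.12). CRABP2, which delivers retinoic acid to its receptors, was at 1622, 1951 and 1922 TPM at 2 h, 2509, 4576 and 3212 at 4 h and 2197, 2089 and 2234 at 6 h. CRABP2 differed by 0.56 ± 0.16 (limma adjusted p = 0.039). CRABP2 lost its call without any 1 of the 2 h libraries, 4 h A2, 4 h B1 or any 1 of the 6 h libraries (adjusted p up to 0.27). The sister enzymes CYP26B1 and CYP26C1 had no library over 5 TPM in these 9 and did not pass, with differences of 0.54 and 0.39, or 0.83 and 0.74 without 4 h B1. ALDH1A2, which makes retinoic acid, had no library over 2 TPM. CRABP2 did not pass when the 9 libraries were fitted alone, under median-ratio scaling or without the mean trend (adjusted p = 0.18, 0.071 and 0.078).

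Retinoid receptors and responsive genes went both ways: of 16 tested, 2 rose and 3 fell, with a median of -0.34. Of all genes tested, 0.843% were higher and 2.64% lower, with a median of -0.12. TSHZ1, a zinc finger transcription factor, was at 40.4, 34.0 and 41.3 TPM at 2 h, 142, 126 and 103 at 4 h and 76.8, 78.0 and 66.1 at 6 h. No library overlapped with 2 h, and the difference was 1.28 ± 0.22 (limma adjusted p = 0.00017). RARB was at 143, 158 and 137 TPM at 2 h, 115, 105 and 104 at 4 h and 82.9, 90.9 and 75.6 at 6 h. Its 6 libraries of 4 and 6 h all lay below those of 2 h, with a difference of -0.62 ± 0.17 (limma adjusted p = 0.034). RARB lost its call without any 1 of the 2 h libraries, 4 h B1, 6 h A1 or 6 h B1 (adjusted p up to 0.2). RARB did not pass under median-ratio scaling or without the mean trend (adjusted p = 0.053 and 0.053).

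SKAP2, an adaptor protein whose gene lies beside the HOXA cluster, was at 162, 196 and 183 TPM at 2 h, 114, 90.7 and 92.7 at 4 h and 62.7, 50.3 and 62.2 at 6 h. The 3 groups did not overlap and 6 h was the lowest. SKAP2 differed by -1.24 ± 0.17 (limma adjusted p = 2.8e-06). MEIS1, a cofactor of HOX proteins, was at 128, 118 and 121 TPM at 2 h, 63.3, 68.2 and 136 at 4 h and 48.6, 49.7 and 56.8 at 6 h. The 4 h B1 library overlapped with 2 h and the other 5 libraries lay below. MEIS1 differed by -0.89 ± 0.26 (limma adjusted p = 0.047). MEIS1 lost its call without any 1 of the 2 h libraries, 4 h A1, 4 h A2 or any 1 of the 6 h libraries (adjusted p up to 0.2). MEIS1 did not pass when the 9 libraries were fitted alone, with a pseudocount of 0.1, under median-ratio scaling or without the mean trend (adjusted p = 0.1, 0.057, 0.075 and 0.061).

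HOX genes, which set position along the body axis, passed in small numbers. Of 12 tested genes of groups 1 to 4, HOXB4 and HOXD4 rose and HOXC4 fell, with a median of 0.26, and without 4 h B1 HOXB4 alone passed. Of 11 tested genes of groups 5 to 9 none passed. Of all genes tested, 0.843% were higher and 2.64% lower. HOXB4 was at 0.54, 4.36 and 7.47 TPM at 2 h, 18.2, 16.1 and 13.8 at 4 h and 6.33, 7.97 and 8.22 at 6 h. All 3 libraries of 4 h lay above those of 2 h while 1 of 6 h, A1, overlapped with them. HOXB4 differed by 1.54 ± 0.35 (limma adjusted p = 0.0047). HOXB4 lost its call without 2 h A1 (adjusted p up to 0.3). HOXD4 was at 88.3, 78.5 and 39.3 TPM at 2 h, 183, 109 and 157 at 4 h and 148, 115 and 122 at 6 h. HOXD4 differed by 1.06 ± 0.29 (limma adjusted p = 0.027). HOXD4 lost its call without 2 h A2, 2 h B1, 4 h B1 or 6 h A1 (adjusted p up to 0.35). HOXC4 was at 3.91, 2.14 and 3.55 TPM at 2 h and was listed at 0 in 4 h B1 and in all 3 libraries of 6 h. HOXC4 differed by -1.64 ± 0.44 (limma adjusted p = 0.024). HOXC4 lost its call without any 1 of the 2 h libraries or 4 h B1 (adjusted p up to 0.15). Means of HOXB4 at later points were 69.0 ± 8.38 TPM at 12 h and 134 ± 38.7 TPM at 24 h (SD, n = 3 each). HOXB4, HOXD4 and HOXC4 did not pass when the 9 libraries were fitted alone (adjusted p = 0.19, 0.1 and 0.076). HOXC4 did not pass with a pseudocount of 5 or after quantile normalization (adjusted p = 0.26 and 0.061).

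**Figure D3:**
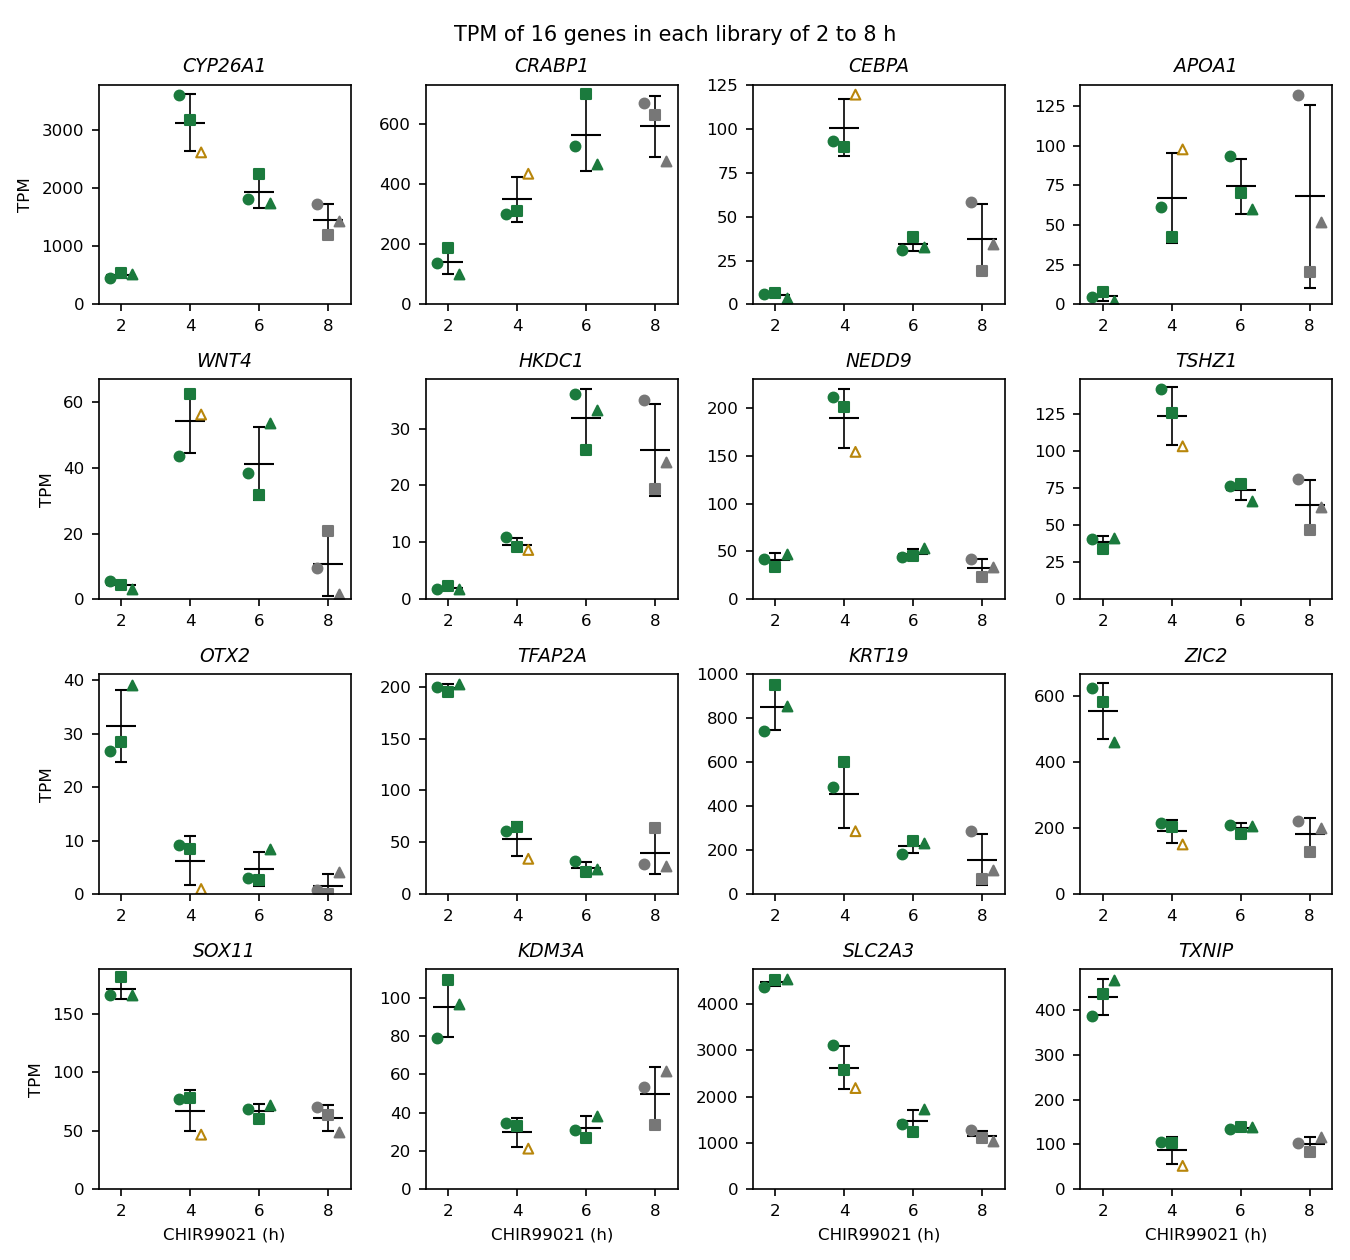
TPM (vertical axes, from 0) of 16 genes in each library of 2, 4, 6 and 8 h of CHIR99021 (horizontal axes), with circles for A1, squares for A2, triangles for B1 and bars for the mean and SD of 3 libraries. The open triangle is 4 h B1 and the 8 h libraries are grey. CYP26A1, CEBPA, WNT4, NEDD9 and TSHZ1 have their highest of these 4 means at 4 h.

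Genes were ranked among those that passed, averaged 5 TPM or more in 1 group and had no overlap between the 2 h libraries and the other 6. The 12 with the largest rises by this rule included CEBPA, WNT4, APOA1, HKDC1, GREM1 and SRSF6. CEBPA, a bZIP factor of liver, fat and myeloid cells, was at 5.83, 6.48 and 3.89 TPM at 2 h, 93.1, 89.9 and 119.7 at 4 h and 31.3, 38.6 and 33.0 at 6 h. The groups did not overlap, and the 4 h libraries were the highest. CEBPA differed by 3.24 ± 0.50 (limma adjusted p = 2.5e-05). WNT4, a secreted WNT ligand, was at 5.51, 4.28 and 3.00 TPM at 2 h, 43.6, 62.5 and 56.2 at 4 h and 38.3, 31.9 and 53.6 at 6 h. It was far above 2 h in all 6 libraries. WNT4 differed by 3.20 ± 0.57 (limma adjusted p = 0.00029). At 8 h WNT4 was at 9.53, 20.8 and 1.72 TPM, with B1 below and A1 and A2 above the 2 h libraries.

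APOA1, the main protein of high-density lipoprotein, was at 4.90, 8.02 and 1.91 TPM at 2 h, 61.1, 42.3 and 97.7 at 4 h and 93.8, 69.9 and 60.0 at 6 h. APOA1 differed by 3.69 ± 0.84 (limma adjusted p = 0.0054). APOA1 lost its call without 2 h B1 (adjusted p up to 0.077). Of 20 tested endoderm and liver-type genes APOA1 alone passed, against 0.843% of all genes higher. FABP1 and OSTBETA, which are not in this list, rose too, by 3.88 and 1.93 (limma adjusted p = 0.023 and 0.0072). Both were listed at 0 in 4 h B1, as at 2 h, and the libraries that ended the FABP1 call are named below. The list median was 0.27, or 0.61 without 4 h B1. The summed level of the 24 listed genes was between 156 and 196 TPM at 2 h, 186 and 367 TPM at 4 h and 241 and 303 TPM at 6 h. That sum includes APOA1, whose means were 4.94, 67.0 and 74.6 TPM at 2, 4 and 6 h. The endoderm factor SOX17 was listed at 0 in every library. HNF4A, a hepatocyte and gut factor, was at 42.3, 28.1 and 17.9 TPM at 2 h, 31.8, 24.9 and 1.25 at 4 h and 36.7, 51.4 and 78.6 at 6 h with no call (limma adjusted p = 0.97). Its difference was below 0 and turned above 0 when 4 h B1, its lowest library, was left out. The part of endoderm or liver-type cells in the APOA1 and CEBPA differences was not tested. APOA1 did not pass with a pseudocount of 0.1 (adjusted p = 0.22). OSTBETA did not pass when the 9 libraries were fitted alone (adjusted p = 0.066).

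HKDC1, a hexokinase, was at 1.75, 2.39 and 1.82 TPM at 2 h, 10.9, 9.20 and 8.66 at 4 h and 36.0, 26.2 and 33.3 at 6 h, with every 6 h library above every 4 h library and these above 2 h. HKDC1 differed by 2.64 ± 0.43 (limma adjusted p = 9.5e-05). GREM1, a secreted antagonist of BMP ligands, was at 8.59, 6.06 and 6.83 TPM at 2 h, 33.8, 34.2 and 20.3 at 4 h and 61.6, 38.9 and 37.1 at 6 h, without overlap. GREM1 differed by 2.19 ± 0.44 (limma adjusted p = 0.0013). SRSF6, a splicing factor, was at 89.1, 90.1 and 87.1 TPM at 2 h, 352, 253 and 327 at 4 h and 373, 393 and 375 at 6 h. The 6 libraries lay well above those of 2 h. SRSF6 differed by 1.93 ± 0.22 (limma adjusted p = 4.0e-08).

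DUSP4, a nuclear phosphatase that switches off ERK, was at 1.72, 2.75 and 2.83 TPM at 2 h, 31.2, 23.7 and 15.9 at 4 h and 6.11, 11.9 and 10.4 at 6 h. DUSP4 differed by 2.19 ± 0.50 (limma adjusted p = 0.0057). DUSP4 lost its call without 2 h A1 (adjusted p up to 0.065). It was the 1 of 16 tested FGF receptors and ERK feedback genes that passed, against 0.843% of all genes higher. GDF10, a secreted TGF-beta family member, was listed at 0 in A1 and A2 of 2 h and was at 0.64 TPM in B1, against 1.91 to 15.1 TPM at 4 and 6 h. ADAMTS15, a secreted protease, was at 0 to 1.70 TPM at 2 h and at 3.24 to 19.3 TPM after. ADAMTS15 lost its call without 2 h A1 (adjusted p up to 0.2). PIGW, an enzyme of GPI anchor synthesis, was at 6.53, 8.02 and 13.1 TPM at 2 h, 21.1, 29.1 and 16.7 at 4 h and 65.7, 58.97 and 59.8 at 6 h. PIGW differed by 1.93 ± 0.51 (limma adjusted p = 0.022). PIGW lost its call without 2 h A1 or 2 h A2 (adjusted p up to 0.16). GDF10 did not pass when the 9 libraries were fitted alone (adjusted p = 0.074). PIGW did not pass with a pseudocount of 0.1 (adjusted p = 0.12).

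**Figure D4:**
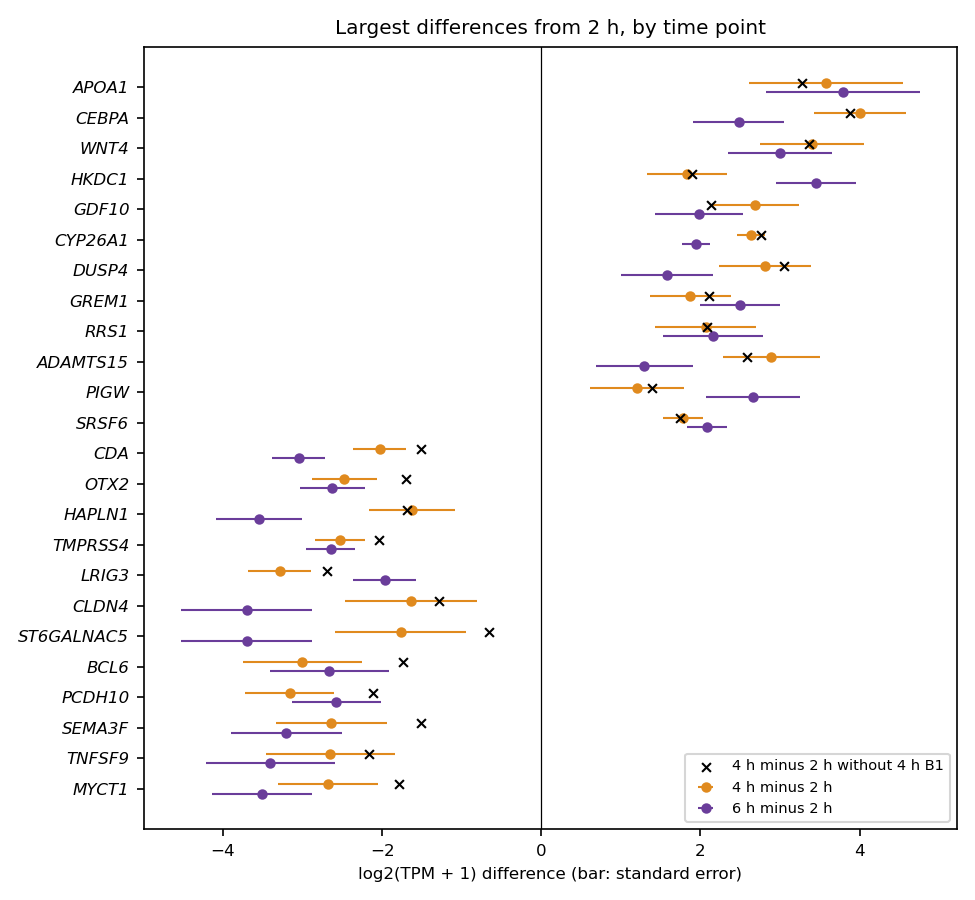
Log2(TPM + 1) difference from 2 h (horizontal axis; bars are standard errors) of the 12 highest and 12 lowest genes of 4 and 6 h minus 2 h, shown separately for 4 h (orange) and 6 h (purple), with crosses for 4 h without 4 h B1. All points lie on the side of 0 that the pooled difference has, which the rule of no overlap with 2 h fixed in advance. For the lower genes the crosses lie closer to 0 than the orange points, HAPLN1 excepted.

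Genes of epithelium and surface ectoderm were lower. Of 27 tested, 11 fell and none rose, 26 of 27 differences were below 0 and the median was -1.45, against 2.64% of all genes lower. Without 4 h B1, 7 fell and the median was -1.14. The summed level of the 30 listed genes was between 4461 and 5087 TPM at 2 h, 2276 and 4467 TPM at 4 h and 2147 and 2202 TPM at 6 h.

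TFAP2A, a transcription factor of surface ectoderm and neural crest, was at 199.6, 195 and 202 TPM at 2 h, 60.8, 64.8 and 34.1 at 4 h and 31.8, 21.2 and 24.1 at 6 h. Each 6 h library lay below each 4 h library and these below 2 h, with a difference of -2.43 ± 0.44 (limma adjusted p = 0.0004). KRT19, a keratin, was at 743, 952 and 855 TPM at 2 h, 486, 599 and 286 at 4 h and 184, 240.0 and 235 at 6 h, in the same order. KRT19 differed by -1.45 ± 0.28 (limma adjusted p = 0.00091). GRHL2, which maintains epithelial junction genes, was at 21.2, 29.6 and 29.2 TPM at 2 h, 11.0, 7.77 and 6.86 at 4 h and 3.51, 5.42 and 3.03 at 6 h. GRHL2 differed by -2.01 ± 0.35 (limma adjusted p = 0.00024). ESRP1, an epithelial splicing regulator, was at 33.5, 46.8 and 31.2 TPM at 2 h, 12.8, 13.8 and 0.56 at 4 h and 14.0, 12.0 and 8.66 at 6 h. ESRP1 differed by -2.03 ± 0.44 (limma adjusted p = 0.0032). TFAP2A, GRHL2 and ESRP1 did not pass with a pseudocount of 0.1 (adjusted p = 0.12, 0.12 and 0.22). ESRP1 did not pass when the 9 libraries were fitted alone (adjusted p = 0.2).

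CLDN4, a tight junction protein, was at 77.1, 123 and 85.9 TPM at 2 h, 36.0, 39.5 and 17.6 at 4 h and 11.5, 3.39 and 5.98 at 6 h. No library overlapped with 2 h, but the spread was wide. CLDN4 differed by -2.67 ± 0.71 (limma adjusted p = 0.023). CLDN4 lost its call without any 1 of the 2 h libraries, 4 h B1 or 6 h A2 (adjusted p up to 0.14). EPCAM was at 385, 433 and 418 TPM at 2 h, 291, 252 and 226 at 4 h and 166, 205 and 165 at 6 h, also without overlap. EPCAM differed by -0.95 ± 0.27 (limma adjusted p = 0.038). EPCAM lost its call without any 1 of the 2 h libraries, 4 h A2, 4 h B1, 6 h A1 or 6 h B1 (adjusted p up to 0.17). TFAP2C and TP63, factors of surface ectoderm, and GRHL3, ST14 and PRSS8 were the other members that passed, with differences of -2.51, -1.44, -2.48, -2.05 and -1.76. Of these, TFAP2C and TP63 passed with each library left out. GRHL3 lost its call without 2 h A1, 2 h B1 or 4 h B1 (adjusted p up to 0.094). ST14 lost its call without any 1 of the 2 h libraries, 4 h B1, 6 h A2 or 6 h B1 (adjusted p up to 0.24). PRSS8 lost its call without any 1 of the 2 h libraries (adjusted p up to 0.15). CDH1, which encodes E-cadherin, was at 183, 215 and 214 TPM at 2 h, 112, 86.0 and 95.5 at 4 h and 37.2, 41.5 and 49.6 at 6 h, below 2 h in all 6 libraries, and did not pass. CDH1 differed by -1.64 ± 0.65 (limma adjusted p = 0.17). KRT8 and KRT18 did not pass either, with differences of -0.37 and -0.38. TFAP2C, TP63, GRHL3 and ST14 did not pass when the 9 libraries were fitted alone (adjusted p = 0.061, 0.14, 0.087 and 0.26). CLDN4, EPCAM, GRHL3, ST14 and PRSS8 did not pass with a pseudocount of 0.1 (adjusted p = 0.054 to 0.42). EPCAM did not pass under median-ratio scaling (adjusted p = 0.058). ST14 did not pass without the 3 libraries under 10000 genes (adjusted p = 0.087).

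**Figure D5:**
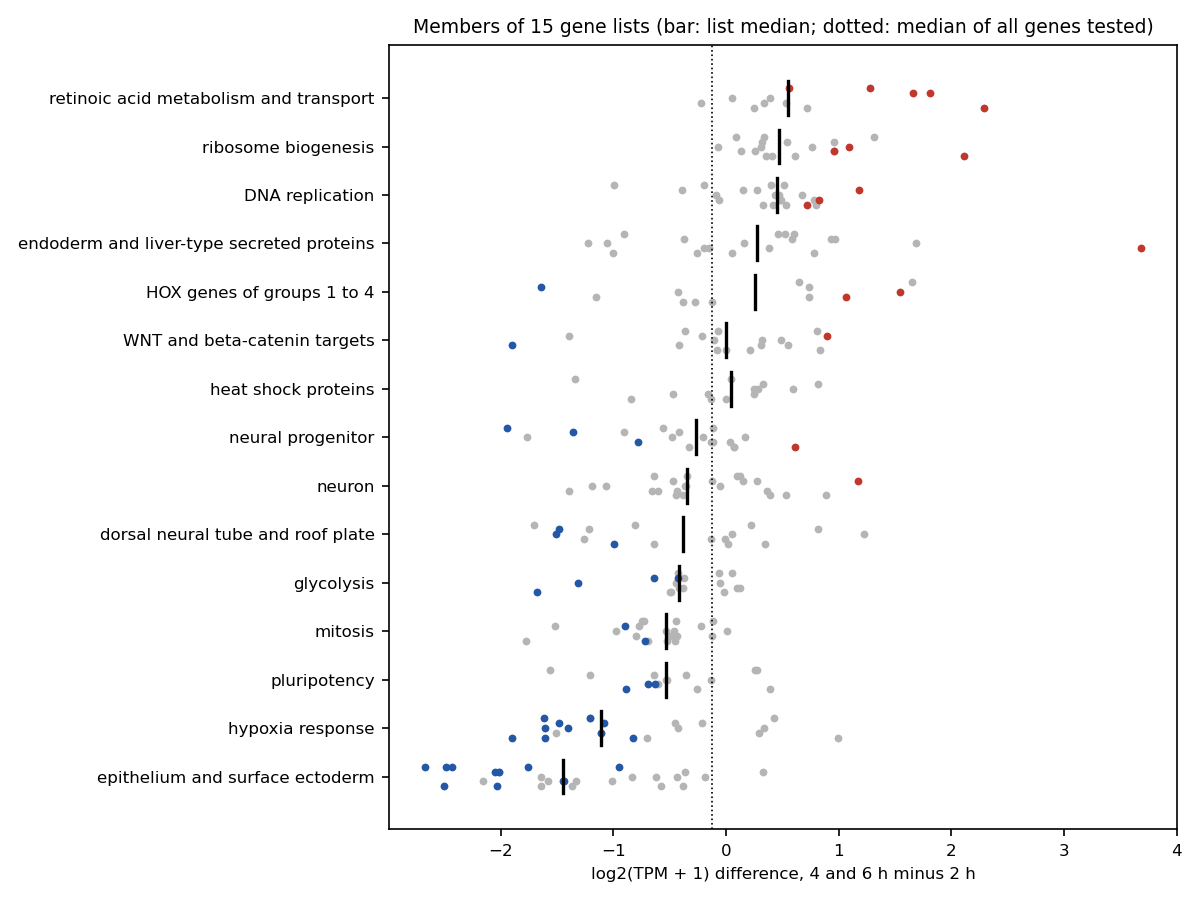
Log2(TPM + 1) differences of 4 and 6 h minus 2 h (horizontal axis) for the tested members of 15 gene lists, 1 point for each gene, red or blue where it passed as higher or lower and grey where it did not. Black bars are list medians and the dotted line is the median of all genes tested, -0.12. Epithelium, at -1.45, and the hypoxia response, at -1.10, have the lowest medians of these lists.

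OTX2, ZIC genes and SOX11 were lower at 4 and 6 h. OTX2, a homeobox factor of forebrain and midbrain, was at 26.7, 28.5 and 39.1 TPM at 2 h, 9.21, 8.51 and 0.97 at 4 h and 3.10, 2.61 and 8.42 at 6 h. No library overlapped with 2 h (difference -2.55 ± 0.36, limma adjusted p = 4.6e-06), and the difference was -2.16 without 4 h B1. Of 8 tested forebrain and midbrain genes, OTX2 and LHX5 fell, and LHX5 was no higher than 3.24 TPM in any of the 9 libraries. LHX5 lost its call without any 1 of the 2 h libraries or 4 h B1 (adjusted p up to 0.14). The list median was -0.22, and without 4 h B1 OTX2 alone fell. Of 16 tested genes of the dorsal neural tube and roof plate, 3 fell and none rose, against 2.64% of all genes lower. The median was -0.39, or -0.02 without 4 h B1, and the zinc finger factors ZIC2 and ZIC5 were among the 3. OTX2 did not pass when the 9 libraries were fitted alone (adjusted p = 0.081). LHX5 did not pass with a pseudocount of 0.1 or after quantile normalization (adjusted p = 0.052 and 0.057).

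ZIC2 was at 624, 582 and 461 TPM at 2 h, 217, 205 and 151 at 4 h and 210.1, 182 and 206 at 6 h. The 2 h libraries lay far above the other 6. ZIC2 differed by -1.50 ± 0.19 (limma adjusted p = 7.5e-07). ZIC5 was at 122, 109 and 123 TPM at 2 h, 70.0, 66.7 and 57.7 at 4 h and 56.1, 53.9 and 51.0 at 6 h. ZIC5 differed by -0.99 ± 0.20 (limma adjusted p = 0.0019).

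Of 18 tested neural progenitor genes, NES rose and SOX11, SOX2 and PTPRZ1 fell, against 0.843% of all genes higher and 2.64% lower. The list median was -0.27. The median was -0.09 and 2 fell when 4 h B1 was left out. SOX11, a SOX factor of early neurons and progenitors, was at 166, 181 and 166 TPM at 2 h, 77.3, 77.5 and 46.5 at 4 h and 68.7, 60.2 and 72.0 at 6 h. None of the 6 libraries overlapped with 2 h. SOX11 differed by -1.36 ± 0.18 (limma adjusted p = 1.9e-06). SOX2, the core progenitor factor whose values stand above, had a difference of -1.94 ± 0.50 (limma adjusted p = 0.018), of -1.06 without 4 h B1 (adjusted p = 0.00063). SOX2 lost its call without any 1 of the 2 h libraries (adjusted p up to 0.091). NES, an intermediate filament of progenitors, was at 119, 108 and 128 TPM at 2 h, 167, 172 and 194 at 4 h and 199, 167 and 189 at 6 h. NES differed by 0.61 ± 0.14 (limma adjusted p = 0.0043). NES lost its call without 2 h A2 (adjusted p up to 0.059). PTPRZ1, a receptor phosphatase of radial glia, differed by -0.78 ± 0.22. PTPRZ1 lost its call without any 1 of the 2 h libraries, 4 h B1 or 6 h A2 (adjusted p up to 0.19). PAX6 did not pass, at a difference of -0.20 ± 0.13 (limma adjusted p = 0.5). Of 24 tested neuron genes TUBB3, a neuronal tubulin, alone passed, at 67.8, 87.4 and 79.2 TPM at 2 h, 152, 168 and 105 at 4 h and 221, 246 and 205 at 6 h. TUBB3 differed by 1.17 ± 0.31 (limma adjusted p = 0.021). TUBB3 lost its call without any 1 of the 2 h libraries (adjusted p up to 0.15). SOX2 and PTPRZ1 did not pass when the 9 libraries were fitted alone (adjusted p = 0.45 and 0.12). SOX2 did not pass with a pseudocount of 0.1 (adjusted p = 0.074).

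Of 15 tested pluripotency genes LIN28A, SALL4 and DNMT3B fell, against 2.64% of all genes lower, and the list median was -0.53. None of these 3 passed without 4 h B1, where DPPA4 did (adjusted p = 0.032). LIN28A, an RNA-binding protein of early embryonic cells, was at 2488, 2768 and 2438 TPM at 2 h, 1926, 2017 and 1412 at 4 h and 1472, 1574 and 1588 at 6 h. LIN28A differed by -0.63 ± 0.17 (limma adjusted p = 0.021). LIN28A lost its call without any 1 of the 2 h libraries or 4 h B1 (adjusted p up to 0.14). SALL4, a zinc finger factor, differed by -0.69 ± 0.19, and DNMT3B, a DNA methyltransferase, by -0.89 ± 0.24. SALL4 lost its call without any 1 of the 2 h libraries, 4 h B1, 6 h A1 or 6 h A2 (adjusted p up to 0.16). DNMT3B lost its call without any 1 of the 2 h libraries, 4 h B1, 6 h A1 or 6 h A2 (adjusted p up to 0.16). POU5F1 was at 16.0, 41.5 and 23.9 TPM at 2 h, 14.3, 21.1 and 0 at 4 h and 10.1, 11.7 and 9.09 at 6 h and did not pass. LIN28A and DNMT3B did not pass when the 9 libraries were fitted alone (adjusted p = 0.053 and 0.15).

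Genes of the hypoxia response, which HIF factors switch on at low oxygen, were lower with 4 and 6 h. Of 21 tested, 10 fell and none rose, with a median of -1.10, against 2.64% of all genes lower and a median of -0.12. Without 4 h B1 10 fell, PFKFB4 not among them, with a median of -0.91, against 1.99% of all genes lower. The summed level of the list was between 6294 and 6993 TPM at 2 h, 3359 and 4504 TPM at 4 h and 2175 and 2664 TPM at 6 h, so its groups did not overlap. SLC2A3, described below, made up most of this sum, so the sum largely repeats the steps of that gene.

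KDM3A, a histone demethylase, was at 78.9, 109.6 and 96.8 TPM at 2 h, 34.8, 33.1 and 21.1 at 4 h and 31.1, 26.9 and 38.4 at 6 h. Both later groups lay below 2 h. KDM3A differed by -1.60 ± 0.18 (limma adjusted p = 4.0e-08). DDIT4, an inhibitor of mTOR signalling, was at 204, 427 and 311 TPM at 2 h, 56.4, 95.9 and 55.1 at 4 h and 99.4, 79.9 and 110.5 at 6 h. DDIT4 differed by -1.90 ± 0.20 (limma adjusted p = 1.4e-08). At 8 h DDIT4 was at 392, 216 and 330.3 TPM, within the range of 2 h. BNIP3, a mitochondrial protein of mitophagy, was at 254, 363 and 253 TPM at 2 h, 195, 118 and 99.8 at 4 h and 70.0, 81.4 and 50.4 at 6 h. BNIP3 differed by -1.60 ± 0.19 (limma adjusted p = 1.7e-07). P4HA1, a collagen prolyl hydroxylase, was at 254, 302 and 210.0 TPM at 2 h, 153, 125 and 116 at 4 h and 47.7, 81.3 and 60.5 at 6 h. P4HA1 differed by -1.48 ± 0.18 (limma adjusted p = 3.7e-07). For both, every 6 h library lay below every 4 h library.

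The glucose transporter SLC2A3 was among the most abundant of these transcripts, at 4381, 4522 and 4554 TPM at 2 h, 3118, 2566 and 2186 at 4 h and 1414, 1242 and 1743 at 6 h. Its level stepped down from 2 to 4 to 6 h without overlap. SLC2A3 differed by -1.21 ± 0.19 (limma adjusted p = 5.5e-05). SLC2A1, another glucose transporter, was at 256, 337 and 218 TPM at 2 h, 193, 165 and 147 at 4 h and 88.1, 94.6 and 96.8 at 6 h. SLC2A1 differed by -1.08 ± 0.18 (limma adjusted p = 0.00016). INSIG2, EGLN1, PFKFB4 and PDK1 were the other members that fell, with differences of -1.61, -1.11, -1.40 and -0.82. PFKFB4 lost its call without any 1 of the 2 h libraries, 4 h B1, 6 h A1 or 6 h B1 (adjusted p up to 0.3). PDK1 lost its call without 2 h A1 or 2 h A2 (adjusted p up to 0.094). EGLN1 lost its call without 2 h A2 (adjusted p up to 0.05). VEGFA, a HIF target that drives vessel growth, was at 65.3, 78.1 and 70.2 TPM at 2 h, 72.9, 53.7 and 35.7 at 4 h and 42.8, 29.1 and 37.2 at 6 h and did not pass (limma adjusted p = 0.18), and CA9 was listed at 0 in 7 of the 9 libraries. EGLN1, PFKFB4 and PDK1 did not pass when the 9 libraries were fitted alone (adjusted p = 0.053, 0.058 and 0.13). PFKFB4 did not pass with a pseudocount of 0.1 (adjusted p = 0.1).

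Of 17 tested glycolysis genes 4 fell and none rose, with a median of -0.42, against 2.64% of all genes lower, and without 4 h B1 2 fell. HK2, a hexokinase, was at 96.7, 125 and 119 TPM at 2 h, 73.9, 60.2 and 18.5 at 4 h and 48.7, 40.9 and 48.3 at 6 h. HK2 differed by -1.31 ± 0.24 (limma adjusted p = 0.00038). SLC16A3, a lactate exporter, was at 60.4, 158 and 90.0 TPM at 2 h, 67.2, 44.6 and 46.8 at 4 h and 15.8, 15.3 and 17.4 at 6 h, where A1 and A2 of 2 h differed widely and 4 h A1 overlapped with 2 h. SLC16A3 differed by -1.67 ± 0.36 (limma adjusted p = 0.0025). SLC16A3 lost its call without 2 h A2 (adjusted p up to 0.089). The glycolytic enzymes ENO2 and PGAM1 differed by -0.64 and -0.42. ENO2 lost its call without 2 h A1, 2 h A2, 4 h B1 or 6 h A2 (adjusted p up to 0.16). PGAM1 lost its call without 2 h A2, 2 h B1, 4 h A2, 4 h B1 or 6 h A1 (adjusted p up to 0.32). TXNIP, an inhibitor of thioredoxin and of glucose uptake, was at 387, 437 and 468 TPM at 2 h, 106, 102 and 51.9 at 4 h and 135, 139.8 and 138 at 6 h. It lay below 2 h in all 6 libraries. TXNIP differed by -2.00 ± 0.22 (limma adjusted p = 3.9e-08). HK2, ENO2 and PGAM1 did not pass when the 9 libraries were fitted alone (adjusted p = 0.14, 0.066 and 0.15). PGAM1 did not pass under median-ratio scaling or without the mean trend (adjusted p = 0.074 and 0.085).

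Genes of DNA replication and ribosome assembly were higher in part. Of 22 tested replication genes CDC6, PCNA and MCM7 rose and none fell, with a median of 0.46, against 0.843% of all genes higher and a median of -0.12. CDC6, which loads the MCM helicase, was at 22.1, 18.3 and 34.3 TPM at 2 h, 45.7, 48.9 and 38.0 at 4 h and 67.0, 74.9 and 71.3 at 6 h. CDC6 differed by 1.18 ± 0.20 (limma adjusted p = 0.0001). PCNA, the sliding clamp, was at 135, 162 and 189 TPM at 2 h, 289, 212 and 193 at 4 h and 365, 355 and 352 at 6 h. PCNA differed by 0.83 ± 0.19 (limma adjusted p = 0.0047). PCNA lost its call without 2 h A1 (adjusted p up to 0.091). MCM7, a subunit of that helicase, differed by 0.72 ± 0.15. MCM7 lost its call without 2 h A2 (adjusted p up to 0.057). Of 21 tested mitosis genes 20 differences were below 0 and 2 passed, TOP2A and CENPE, with a median of -0.53, against 2.64% of all genes lower. TOP2A, the topoisomerase of dividing cells, was at 254, 267 and 249 TPM at 2 h, 165, 113 and 178 at 4 h and 133, 108 and 144 at 6 h. TOP2A differed by -0.89 ± 0.16 (limma adjusted p = 0.00044). CENPE, a kinesin of the kinetochore, differed by -0.72 ± 0.21. CENPE lost its call without any 1 of the 2 h libraries, 4 h A2, 4 h B1, 6 h A1 or 6 h A2 (adjusted p up to 0.32). MCM7 and CENPE did not pass when the 9 libraries were fitted alone (adjusted p = 0.085 and 0.33). CENPE did not pass with a pseudocount of 0.1 or under median-ratio scaling (adjusted p = 0.052 and 0.054).

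Of 18 tested ribosome biogenesis genes RRS1, NOP56 and DKC1 rose, 17 differences were above 0 and the median was 0.47, against 0.843% of all genes higher. NOP56, a core protein of box C/D small nucleolar particles, was at 96.3, 94.7 and 91.8 TPM at 2 h, 187, 148 and 152 at 4 h and 261, 253 and 250.0 at 6 h. The 3 time points did not overlap and 6 h was the highest. NOP56 differed by 1.10 ± 0.19 (limma adjusted p = 0.00022). RRS1, a factor of large subunit assembly, was at 21.0, 19.3 and 21.3 TPM at 2 h, 82.4, 99.2 and 86.1 at 4 h and 102, 95.7 and 87.5 at 6 h. RRS1 differed by 2.11 ± 0.55 (limma adjusted p = 0.018). RRS1 lost its call without any 1 of the 2 h libraries (adjusted p up to 0.097). DKC1, the pseudouridine synthase, differed by 0.96 ± 0.25. DKC1 lost its call without any 1 of the 2 h libraries (adjusted p up to 0.13). None of 27 tested cytosolic ribosomal protein genes passed, with a median of 0.01, or 0.04 without 4 h B1. RRS1 did not pass with a pseudocount of 0.1 (adjusted p = 0.17).

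Signalling genes passed in small numbers. Of all genes tested, 0.843% were higher and 2.64% lower. In the BMP and TGF-beta list, GREM1 and ID3 rose and ID4 and BMP5 fell, of 19 tested, with a median of -0.22. When 4 h B1 was left out the median turned to 0.09 and 1 gene fell. ID3, a BMP-induced inhibitor of bHLH factors, was at 71.3, 58.4 and 58.3 TPM at 2 h, 106, 179 and 91.4 at 4 h and 218, 228 and 197 at 6 h. ID3 differed by 1.35 ± 0.20 (limma adjusted p = 9.3e-06). BMP5, a BMP ligand, had no library over 3.99 TPM and differed by -1.81 ± 0.42. BMP5 lost its call without 2 h A1 (adjusted p up to 0.093). ID4, another of these inhibitors, differed by -0.66 ± 0.19. ID4 lost its call without any 1 of the 2 h libraries, 4 h B1 or any 1 of the 6 h libraries (adjusted p up to 0.23). Of 17 tested WNT and beta-catenin targets CCND1 rose and RNF43 fell, with a median of 0.00. When 4 h B1 was left out the median was 0.42 and none fell. CCND1, the G1 cyclin, was at 136, 120.1 and 119 TPM at 2 h, 231, 187 and 353 at 4 h and 218, 186 and 261 at 6 h. CCND1 differed by 0.90 ± 0.19 (limma adjusted p = 0.0025). RNF43, which removes WNT receptors, was at 6.85, 6.18 and 6.43 TPM at 2 h, 2.75, 1.77 and 0 at 4 h and 2.46, 0 and 0.80 at 6 h. RNF43 differed by -1.90 ± 0.53 (limma adjusted p = 0.031). RNF43 lost its call without any 1 of the 2 h libraries, 4 h B1 or 6 h A2 (adjusted p up to 0.14). CCND1 and RNF43 did not pass when the 9 libraries were fitted alone (adjusted p = 0.066 and 0.11). ID4 and RNF43 did not pass without the 3 libraries under 10000 genes (adjusted p = 0.055 and 0.062). RNF43 did not pass with a pseudocount of 0.1 (adjusted p = 0.22). ID4 did not pass without the mean trend (adjusted p = 0.055).

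Of 10 tested genes of the ventral neural tube and Hedgehog pathway CDON, PTCH1 and BOC fell, against 2.64% of all genes lower. SHH, OLIG2 and NKX6-1 were too low to test. The list median was -0.51, or -0.33 without 4 h B1, where 2 fell. CDON, a Hedgehog co-receptor, was at 358, 319.5 and 325 TPM at 2 h, 284, 216 and 209 at 4 h and 161, 151 and 187 at 6 h. CDON differed by -0.76 ± 0.16 (limma adjusted p = 0.0019). PTCH1, the Hedgehog receptor, differed by -0.90 ± 0.24, and the co-receptor BOC by -2.11 ± 0.54. PTCH1 lost its call without any 1 of the 2 h libraries, 4 h A2 or 6 h B1 (adjusted p up to 0.16). BOC lost its call without 2 h A1, 2 h A2 or 4 h B1 (adjusted p up to 0.14). Of 17 tested Notch genes NOTCH1, a receptor, fell, at 38.8, 38.5 and 34.4 TPM at 2 h, 24.4, 19.6 and 24.0 at 4 h and 23.8, 18.0 and 18.7 at 6 h. NOTCH1 differed by -0.78 ± 0.21 (limma adjusted p = 0.029). NOTCH1 lost its call without any 1 of the 2 h libraries, 4 h A2, 6 h A2 or 6 h B1 (adjusted p up to 0.15). Of 12 tested neural crest genes FOXD3 and TFAP2B fell, both under 4 TPM in all 9 libraries, and the list median was -0.81, or -0.42 without 4 h B1. FOXD3 lost its call without 2 h A1 or 2 h B1 (adjusted p up to 0.24). BOC, NOTCH1 and FOXD3 did not pass when the 9 libraries were fitted alone (adjusted p = 0.26, 0.053 and 0.33). BOC did not pass with a pseudocount of 0.1 (adjusted p = 0.1).

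Other lists had 1 passing gene or none, against 0.843% of all genes higher and 2.64% lower. ATF4, the factor of the amino acid response, rose, 1 of 19 tested (difference 0.75 ± 0.18). ATF4 lost its call without 2 h A1 or 2 h A2 (adjusted p up to 0.13). KLF4 fell among 21 immediate early and stress-induced genes and LAMA1, a laminin chain, among 19 collagens and laminins. Their differences were -1.17 and -0.85. KLF4 lost its call without 2 h A1, 2 h B1, 4 h B1, 6 h A2 or 6 h B1 (adjusted p up to 0.49). LAMA1 lost its call without 2 h A1 or 2 h B1 (adjusted p up to 0.078). TXNIP, described above, was the only one of 16 oxidative stress and metallothionein genes to pass. No gene passed among 9 of paraxial mesoderm, 14 of smooth muscle and lateral mesoderm, 10 of endothelium and blood, 10 secreted WNT antagonists, 11 of hindbrain segments, 13 heat shock proteins, 28 of cholesterol and fatty acid synthesis, 14 p53 targets, 8 housekeeping genes, 23 nuclear oxidative phosphorylation subunits and 14 of the circadian clock. Of 10 tested tail bud genes CYP26A1, already described, was the only one to pass. Leaving out 4 h B1 brought 1 lower housekeeping gene and 1 higher Notch gene, and KLF4 no longer passed. KLF4 and LAMA1 did not pass when the 9 libraries were fitted alone (adjusted p = 0.4 and 0.058). KLF4 did not pass with a pseudocount of 0.1, after quantile normalization, with array weights or without the 3 libraries under 10000 genes (adjusted p = 0.092, 0.082, 0.073 and 0.097).

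By the same rule the remaining genes with the largest falls had 2 h means between 7.60 and 93.7 TPM. In 4 h B1, 8 of the 12 were listed at 0, as were 5402 of all 15305 genes tested. LRIG3, a membrane protein with leucine-rich repeats, was at 52.4, 62.4 and 59.6 TPM at 2 h, 7.33, 9.05 and 1.64 at 4 h and 13.6, 12.4 and 16.5 at 6 h. LRIG3 differed by -2.63 ± 0.34 (limma adjusted p = 1.2e-06). HAPLN1, a link protein of hyaluronan matrix, was at 72.9, 100.1 and 108 TPM at 2 h, 25.2, 30.8 and 32.0 at 4 h and 11.4, 5.41 and 5.40 at 6 h, with every 6 h library below every 4 h library. HAPLN1 differed by -2.59 ± 0.47 (limma adjusted p = 0.00036). PCDH10, a protocadherin, was at 31.3, 46.0 and 35.9 TPM at 2 h, 5.62, 10.8 and 0 at 4 h and 5.16, 5.27 and 5.87 at 6 h (difference -2.87 ± 0.48, -2.34 without 4 h B1). BCL6, a transcriptional repressor, was at 46.8, 36.8 and 52.6 TPM at 2 h, 9.80, 16.4 and 0 at 4 h and 9.36, 2.80 and 8.68 at 6 h (difference -2.83 ± 0.64, -2.20 without 4 h B1). PCDH10 and BCL6 did not pass when the 9 libraries were fitted alone (adjusted p = 0.092 and 0.15). HAPLN1 and PCDH10 did not pass with a pseudocount of 0.1 (adjusted p = 0.056 and 0.09).

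SEMA3F, a secreted guidance factor, was at 24.2, 35.6 and 27.7 TPM at 2 h, 10.0, 8.97 and 0 at 4 h and 3.19, 2.62 and 1.23 at 6 h. SEMA3F differed by -2.92 ± 0.60 (limma adjusted p = 0.002). For SEMA3F that value was -2.36 without 4 h B1. MYCT1 was at 21.6, 22.6 and 18.8 TPM at 2 h, 5.52, 5.14 and 0 at 4 h and 4.74, 0 and 0.24 at 6 h. MYCT1 differed by -3.10 ± 0.54 (limma adjusted p = 0.00024). For MYCT1 it was -2.65 without that library. TMPRSS4, a membrane serine protease, and CDA, a cytidine deaminase, were under 15 TPM at 2 h, and at 4 and 6 h neither was above 3.37 TPM. CDA was listed at 0 in all 3 libraries of 6 h. TNFSF9, a TNF family ligand, and ST6GALNAC5, a sialyltransferase, completed the 12. TNFSF9 lost its call without 2 h A2 (adjusted p up to 0.079). ST6GALNAC5 lost its call without any 1 of the 2 h libraries or 4 h B1 (adjusted p up to 0.13). SEMA3F, MYCT1 and ST6GALNAC5 did not pass when the 9 libraries were fitted alone (adjusted p = 0.11, 0.094 and 0.12). TNFSF9 did not pass with a pseudocount of 0.1 (adjusted p = 0.072).

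At 4 h against 2 h, 68 genes were higher, or 0.444%, and 320 lower, or 2.09%, together 2.54%, with a median over all genes of -0.19. The libraries of 4 h lay all above those of 2 h in 5.37% of genes and all below in 15.5%. Without 4 h B1, 34 were higher, or 0.222%, and 74 lower, or 0.484%, with a median of -0.06, and 85 of the 388 calls remained. Without 2 h A1, A2 or B1 the total was 134, 166 or 148, and without 4 h A1 or A2 it was 1181 or 843. Of the 320 lower genes, 102 were listed at 0 in 4 h B1, as were 5402 of all 15305 genes tested. Under median-ratio scaling of the libraries the median was -0.08, with 111 genes higher and 221 lower, so the balance of directions at 4 h moves with the scaling. Of the lists above, 4 of 12 retinoid handling genes rose, 6 of 27 epithelial and 7 of 21 hypoxia genes fell, and these counts were 2, 1 and 4 without 4 h B1.

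By the same rule within these groups, the 8 largest rises at 4 h were CEBPA (4.00 ± 0.57), APOA1, WNT4, ADAMTS15, DUSP4, GDF10, CYP26A1 (2.63 ± 0.17) and ISM2. ISM2 lost its call at 4 h without 2 h A1, 2 h B1 or 4 h B1 (adjusted p up to 0.14). APOA1 lost its call at 4 h without any 1 of the 2 h libraries or 4 h B1 (adjusted p up to 0.22). ADAMTS15 lost its call at 4 h without 2 h A1 or 4 h B1 (adjusted p up to 0.064). GDF10 lost its call at 4 h without 4 h B1 (adjusted p up to 0.084). The 8 largest falls were PNRC1, LRIG3, PCDH10, CD200, BCL6, MYCT1, SEMA3F and SOX2, of which LRIG3 was at 7.33, 9.05 and 1.64 TPM and the other 7 were listed at 0 in 4 h B1. PNRC1, a nuclear receptor coactivator, was at 94.9, 78.1 and 78.6 TPM at 2 h, 24.9, 19.9 and 0 at 4 h and 55.8, 33.3 and 25.9 at 6 h (difference -3.37 ± 0.54, limma adjusted p = 0.00012). The difference of PNRC1 was -1.86 without 4 h B1. CD200, a membrane glycoprotein, was at 35.2, 46.8 and 47.7 TPM at 2 h, 13.3, 7.58 and 0 at 4 h and 19.6, 12.5 and 16.5 at 6 h. CD200 lost its call at 4 h without 4 h B1 (adjusted p up to 0.14). BCL6 lost its call at 4 h without any 1 of the 2 h libraries or 4 h B1 (adjusted p up to 0.44). MYCT1 lost its call at 4 h without 2 h A1, 2 h A2 or 4 h B1 (adjusted p up to 0.29). SEMA3F lost its call at 4 h without any 1 of the 2 h libraries or 4 h B1 (adjusted p up to 0.54). SOX2 lost its call at 4 h without 4 h B1 (adjusted p up to 0.09). ADAMTS15, GDF10, ISM2, PCDH10, CD200, BCL6, MYCT1, SEMA3F, SOX2 and PNRC1 did not pass at 4 h when the 9 libraries were fitted alone (adjusted p = 0.058 to 0.39). APOA1, WNT4, ISM2, PCDH10 and MYCT1 did not pass at 4 h with a pseudocount of 0.1 (adjusted p = 0.066 to 0.29). APOA1, GDF10, ISM2, CD200, BCL6, MYCT1 and SEMA3F did not pass at 4 h without the 3 libraries under 10000 genes (adjusted p = 0.054 to 0.29).

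NEDD9, a scaffold protein of focal adhesions, was high at 4 h alone among these points, at 41.6, 33.8 and 47.8 TPM at 2 h, 212, 202 and 154 at 4 h and 44.0, 45.0 and 53.8 at 6 h. The 4 h libraries lay above all others of 2 and 6 h, with a difference of 2.18 ± 0.33 from 2 h (limma adjusted p = 4.6e-05) and of -1.96 ± 0.33 for 6 h minus 4 h (limma adjusted p = 0.0011). ATF3, a stress-induced factor, was at 14.1, 14.8 and 7.46 TPM at 2 h, 43.5, 48.7 and 58.2 at 4 h and 15.9, 11.7 and 18.2 at 6 h. At 4 h ATF3 differed from 2 h by 2.01 ± 0.48 (limma adjusted p = 0.014). ATF3 lost its call at 4 h without 2 h B1 or 4 h B1 (adjusted p up to 0.11). HOXB3 was at 21.7, 19.5 and 20.9 TPM at 2 h, 45.1, 45.2 and 55.5 at 4 h and 39.7, 18.1 and 22.8 at 6 h, above 2 h in every 4 h library. At 4 h HOXB3 differed from 2 h by 1.19 ± 0.31 (limma adjusted p = 0.03). HOXB3 lost its call at 4 h without any 1 of the 2 h libraries or 4 h B1 (adjusted p up to 0.19). RARA, a retinoic acid receptor, was at 35.9, 29.2 and 24.9 TPM at 2 h, 55.1, 54.3 and 109 at 4 h and 42.1, 39.8 and 31.9 at 6 h. At 4 h RARA differed from 2 h by 1.19 ± 0.31 (limma adjusted p = 0.03). RARA lost its call at 4 h without any 1 of the 2 h libraries or 4 h B1 (adjusted p up to 0.37). HOXB3 and RARA did not pass at 4 h when the 9 libraries were fitted alone (adjusted p = 0.12 and 0.13). ATF3 and RARA did not pass at 4 h without the 3 libraries under 10000 genes (adjusted p = 0.052 and 0.18).

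At 6 h against 2 h, 175 genes were higher, or 1.14%, and 324 lower, or 2.12%, together 3.26%, with a median of -0.02. The libraries of 6 h lay all above those of 2 h in 14.9% of genes and all below in 17.7%. The comparison shares the 2 h libraries with that of 4 h. Without 4 h B1, whose spread enters the shared error estimate, all 499 calls remained, and 222 genes were higher, or 1.45%, and 403 lower, or 2.63%. Without 2 h A1, A2 or B1 the total was 278, 272 or 320, and without 6 h A1, A2 or B1 it was 281, 267 or 330. Among lists, 2 of 12 retinoid handling genes, 5 of 22 replication genes, 4 of 18 ribosome biogenesis genes, 4 of 13 heat shock genes and 4 of 28 cholesterol and fatty acid genes rose. In the other direction 10 of 27 epithelial, 10 of 21 hypoxia, 4 of 17 glycolysis and 4 of 21 mitosis genes fell. The ribosome biogenesis median was 1.10 and the replication median 0.75.

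The 8 largest rises at 6 h were FABP1, APOA1, HKDC1, TMEM26, WNT4, DHRS9, DUSP9 and OSTBETA. FABP1, the liver fatty acid binding protein, was listed at 0 in the 3 libraries of 2 h and in 4 h B1, and was at 45.7, 8.50 and 28.0 TPM at 6 h. It also passed at 4 and 6 h minus 2 h, with the highest difference of all genes, 3.88 ± 1.04 (limma adjusted p = 0.023), but 4 h B1 overlapped with 2 h. FABP1 lost its call without any 1 of the 2 h libraries, 4 h A2 or 6 h A1 (adjusted p up to 0.1). OSTBETA, a subunit of a bile salt transporter, was listed at 0 in the 3 libraries of 2 h and was at 5.20, 4.16 and 7.05 TPM at 6 h. DHRS9, a retinol dehydrogenase, was at 0.74, 0 and 0 TPM at 2 h, 0.63, 1.55 and 25.1 at 4 h and 11.5, 11.3 and 4.55 at 6 h. No fold is given against groups listed at 0. TMEM26, a membrane protein, was at 0.21, 0 and 0.65 TPM at 2 h, 0, 2.14 and 0 at 4 h and 12.4, 8.33 and 12.6 at 6 h, above both earlier groups at 6 h (difference from 2 h 3.24 ± 0.43, limma adjusted p = 1.8e-06). FABP1 lost its call at 6 h without any 1 of the 2 h libraries, 6 h A1 or 6 h B1 (adjusted p up to 0.13). DHRS9 lost its call at 6 h without 2 h A2, 2 h B1, 6 h A1 or 6 h A2 (adjusted p up to 0.088). DUSP9 lost its call at 6 h without any 1 of the 2 h libraries, 6 h A1 or 6 h A2 (adjusted p up to 0.22). APOA1 lost its call at 6 h without 2 h A1, 2 h B1, 6 h A1 or 6 h A2 (adjusted p up to 0.11). APOA2, another lipoprotein gene, was at 19.5, 18.7 and 0 TPM at 6 h and listed at 0 at 2 h. APOA2 lost its call at 6 h without 6 h A1 or 6 h A2 (adjusted p up to 0.12). FABP1, DHRS9, DUSP9 and APOA2 did not pass at 6 h when the 9 libraries were fitted alone (adjusted p = 0.12, 0.18, 0.16 and 0.24). APOA1, WNT4 and DUSP9 did not pass at 6 h with a pseudocount of 0.1 (adjusted p = 0.35, 0.14 and 0.2). FABP1 did not pass when the 9 libraries were fitted alone (adjusted p = 0.13).

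The 8 largest falls at 6 h were ST6GALNAC5, CLDN4, HAPLN1, MYCT1, TNFSF9, SEMA3F, KLF7 and CDA, with differences from -3.70 to -3.05. KLF7, a zinc finger factor, was at 8.62, 9.76 and 12.4 TPM at 2 h and 0, 0 and 0.89 TPM at 6 h. KLF7 lost its call at 6 h without 2 h A2, 2 h B1, 6 h A1 or 6 h A2 (adjusted p up to 0.075). TNFSF9 lost its call at 6 h without 2 h A2 (adjusted p up to 0.07). ST6GALNAC5, MYCT1, SEMA3F and KLF7 did not pass at 6 h when the 9 libraries were fitted alone (adjusted p = 0.077, 0.096, 0.12 and 0.1). CLDN4, MYCT1 and TNFSF9 did not pass at 6 h with a pseudocount of 0.1 (adjusted p = 0.32, 0.05 and 0.065).

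Among the genes higher at 6 h were chaperones. HSPA8, a constitutive HSP70, was at 1039, 1146 and 1110.3 TPM at 2 h, 1199, 877 and 1469.5 at 4 h and 1713, 1581 and 1639.8 at 6 h, with 6 h above the other groups (6 h minus 2 h 0.58 ± 0.12, limma adjusted p = 0.003, and 6 h minus 4 h 0.51 ± 0.12, limma adjusted p = 0.035). HSPA8 lost its call for 6 h minus 4 h without 4 h A2 or any 1 of the 6 h libraries (adjusted p up to 0.18). HSPA5, the chaperone of the endoplasmic reticulum, was at 492, 476 and 534 TPM at 2 h, 637, 529 and 434 at 4 h and 896, 784 and 969 at 6 h (6 h minus 2 h 0.81 ± 0.17, limma adjusted p = 0.003). The means of HSPA8 were 2590.4 ± 59.6 TPM at 8 h and 1118 ± 48.1 TPM at 24 h (SD, n = 3 each). HSPA8 did not pass at 6 h when the 9 libraries were fitted alone (adjusted p = 0.15). HSPA8 did not pass for 6 h minus 4 h when the 9 libraries were fitted alone, under median-ratio scaling or without the mean trend (adjusted p = 0.38, 0.26 and 0.11).

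Compared directly, 6 h minus 4 h, 73 genes were higher at 6 h, or 0.477%, and 30 lower, or 0.196%, together 0.673%. Under median-ratio scaling these counts were 62 and 61. The libraries of 6 h lay all above those of 4 h in 10.9% of genes and all below in 4.77%. Without 4 h B1, 12 genes were higher, or 0.0784%, and 21 lower, or 0.137%. Then 21 of the 103 calls remained. In that library 21 of the 73 higher genes were listed at 0, as were 5402 of all 15305 genes tested. The total was 804 or 599 without 4 h A1 or A2, and 24, 45 or 29 without 6 h A1, A2 or B1. The 8 largest rises (TMEM26, SRM, RCL1, ARMC6, NVL, LRRFIP2, ALKBH8 and DNPEP) were all listed at 0 in 4 h B1, and without it TMEM26 alone passed, at 2.75 (adjusted p = 0.0026). SRM to DNPEP differed by 2.48 to 2.91 with that library. Without it they differed, in the order listed, by 1.08, 0.99, 0.81, 0.80, 0.61, 1.11 and 1.18. Of the 8 largest falls (FGF19, FOXC2, SLC5A11, AIFM3, TOX, NEDD9, GATA4 and ZNF503), NEDD9 and ZNF503 passed without it. FGF19, a secreted FGF, was at 3.54, 1.66 and 3.55 TPM at 2 h, 14.6, 16.1 and 57.2 at 4 h and 0.76, 0 and 2.38 at 6 h, where 4 h B1 was the highest library (difference -3.78 ± 0.80, limma adjusted p = 0.014). FGF19 lost its call for 6 h minus 4 h without 4 h B1, 6 h A1 or 6 h A2 (adjusted p up to 0.15). ZNF503, a zinc finger repressor, was at 65.1, 49.1 and 61.8 TPM at 2 h, 82.8, 70.0 and 121 at 4 h and 25.2, 20.5 and 31.8 at 6 h (difference -1.77 ± 0.31, limma adjusted p = 0.0013). TMEM26, SRM, RCL1, ARMC6, NVL, LRRFIP2, ALKBH8, DNPEP, FGF19, FOXC2, SLC5A11, AIFM3, TOX, GATA4 and ZNF503 did not pass for 6 h minus 4 h when the 9 libraries were fitted alone (adjusted p = 0.09 to 0.53). SRM, ARMC6, LRRFIP2, ALKBH8, FGF19, FOXC2, SLC5A11, AIFM3, TOX and GATA4 did not pass for 6 h minus 4 h with a pseudocount of 0.1 (adjusted p = 0.051 to 0.22). SRM and DNPEP did not pass for 6 h minus 4 h under median-ratio scaling (adjusted p = 0.051 and 0.052). SRM and LRRFIP2 did not pass for 6 h minus 4 h without the mean trend (adjusted p = 0.057 and 0.054). SRM, ARMC6 and LRRFIP2 did not pass for 6 h minus 4 h with array weights (adjusted p = 0.064, 0.1 and 0.076). SRM, RCL1, ARMC6, NVL, LRRFIP2, ALKBH8, DNPEP, FGF19, FOXC2, SLC5A11, AIFM3, TOX and GATA4 did not pass for 6 h minus 4 h without the 3 libraries under 10000 genes (adjusted p = 0.065 to 0.45).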

How the data were processed

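Poly(A) RNA of 59 libraries was sequenced with single reads of 51 bases, 30 libraries per lane, after 18 cycles of PCR from 100.0 ng of total RNA, per the labels' protocols. The values are TPM deposited by the authors in 1 table of 19084 gene symbols, and no unit other than TPM was used. The submitters' processing notes name CASAVA 1.8.2, Bowtie 0.12.8, RSEM 1.2.3 and the build hg19. The gene annotation and the strand setting are not given in the sources used here, so overlapping antisense genes and near-identical copies cannot be told apart. TPM keep no depth, so a low value may rest on few reads.

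Values were tested as log2(TPM + 1) with limma 3.58.1 (R 4.3.3; lmFit, contrasts.fit, eBayes with a mean trend). All 59 libraries entered as 20 time points sharing 1 estimate of the spread (39 residual degrees of freedom). Genes with at least 1 TPM in at least 3 libraries were tested (15305), with Benjamini-Hochberg adjustment over all of them and a threshold of 0.05. The 4 and 6 h value is the mean of both time-point means minus that of 2 h. The scripts were tested on simulated data. No 2 libraries held identical values.

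Named genes were the 12 highest and 12 lowest (8 each for the other comparisons) that passed, averaged 5 TPM or more in 1 group and had no overlap between groups, and members of the gene lists. A few list members are counted but not reported by name here. The members and lists were chosen with earlier results of these data known. Alternatives were the pseudocount, the filter, the scaling, the libraries fitted, array weights, the replicate label as a block, no trend, and leaving out each of the 9 libraries. A fit without the 3 libraries under 10000 genes was added after seeing the data. Plots were made in Python 3.11.15 (matplotlib 3.10.9).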

Additional observations from a re-analysis of the deposited data

Results flagged for a closer look

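The 4 h B1 library, with 9695 genes at 1 TPM or more, stood apart from the other 5 libraries of 4 and 6 h. Its gap to the nearest of them was larger than Dixon's test allows for 6 samples. The library was already known to have few detected genes, so this outcome was fixed in advance. The TPM of TMPRSS4, a membrane serine protease that fell at 4 and 6 h, was 3.37 in 4 h A2 and stood above the other 5 libraries by the same test. Of 25 results checked in this way 2 stood apart, that of 4 h B1 included, and chance alone flags about 1 in 20 groups.

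Among the named and listed genes reported here, 31 differed between 6 and 4 h in the direct test of that difference (limma on log2(TPM + 1), adjusted over all genes). Of these, 14 were lower at 6 h and 17 higher. Listed at 0 in 4 h B1 were 10 of the 31, and 5402 of all 15305 genes tested. Without that library 9 of the 31 passed. The log2 differences of 6 h minus 4 h below 0 were those of FGF19 (-3.78), FOXC2 (-3.45), SLC5A11 (-2.53), AIFM3 (-2.48), TOX (-2.22), NEDD9 (-1.96), GATA4 (-1.96), ZNF503 (-1.77), SLC16A3 (-1.63), ERG (-1.41), P4HA1 (-1.07), BNIP3 (-0.99), SLC2A1 (-0.84) and CYP26A1 (-0.69). Those above 0 were those of HSPA8 (0.51), MCM7 (0.67), HSPA5 (0.74), HSPH1 (0.90), VLDLR (0.91), INSIG1 (1.03), GCLC (1.35), APOB (1.82), PNRC1 (2.20), DNPEP (2.48), ALKBH8 (2.50), LRRFIP2 (2.50), NVL (2.51), ARMC6 (2.54), RCL1 (2.64), SRM (2.91) and TMEM26 (3.03). Leaving out 4 h B1 moved PNRC1 to 0.68, DNPEP to 1.18, ALKBH8 to 1.11 and LRRFIP2 to 0.61. It moved NVL to 0.80, ARMC6 to 0.81, RCL1 to 0.99, SRM to 1.08 and SLC5A11 to -1.61. When only the 9 libraries were fitted, NEDD9 alone of the 31 passed (limma adjusted p of the others 0.05 to 0.53). Of the 31, GCLC, INSIG1, NEDD9, TMEM26 and ZNF503 passed with each of the 9 libraries left out in turn. The other 26 each lost the call without at least 1 library, 24 without 6 h A1, 22 without 6 h B1, 22 without 4 h B1 and 19 without 6 h A2. Without 2 h A1, 4 h A1 or 4 h A2 the losses were 4, 4 and 2. Besides calls named above, APOB, PNRC1, SLC16A3 and SLC2A1 did not pass with a pseudocount of 0.1. The same held for HSPA5 and MCM7 under median-ratio scaling, CYP26A1 after quantile normalization and PNRC1 with array weights. Without the mean trend CYP26A1, HSPA5, MCM7, PNRC1, SLC16A3, SLC2A1 and VLDLR did not pass. Without the 3 libraries under 10000 genes APOB, ERG, MCM7, PNRC1 and VLDLR did not.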

How the results depend on the processing

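None of the genes named by rank turned direction under the settings tried. They were chosen for having no overlap between groups, which largely fixed that outcome in advance. The genes passing at 4 and 6 h minus 2 h (533) became 2645 with array weights, 954 without the 3 libraries under 10000 genes, and 249 to 779 with 1 library left out. At 4 h minus 2 h (388) they became 1525 with array weights, 77 when the 9 libraries were fitted alone, and 108 to 1181 with 1 left out. At 6 h minus 2 h (499) they became 2813 with array weights, 1193 without the 3 libraries, and 267 to 625 with 1 left out. At 6 h minus 4 h (103) they became 753 with array weights, 159 after quantile normalization, 5 in the fit of 9 libraries, and 24 to 804 with 1 left out. The array weight of 4 h B1 was 0.0945, against 1.26 to 2.17 in the other 8 libraries. The cause of these shifts was not tested. Fitting the 9 libraries alone gave 153 genes higher and 251 lower at 4 and 6 h, and median-ratio scaling gave 111 and 221 at 4 h, or 33.4% higher in place of 17.5%. Named genes past the threshold in all settings were 9 of 24, 4 of 16, 5 of 16 and 1 of 16, in the order above. Of the 102 named or listed genes that passed at 4 and 6 h, 48 passed with each of the 9 libraries left out.

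With the replicate label as a block, 527, 365, 486 and 102 genes passed, in the same order. Deviations of libraries with the same label correlated at -0.026 to 0.039 over 9 pairs, none above 0.1, so the labels were not taken to pair the libraries.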
